A study of Mus musculus with 21 samples.

Results

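The effect of losing IRE1α was compared between Myc-CaP tumours and cultured Myc-CaP cells, by subtracting the knockout effect in cells from that in tumours for every gene. Of the 21 RNA-seq libraries of the series, 16 entered the comparison: 2 of wild-type (WT) cells, 4 of knockout (KO) cells, 4 of WT tumours and 6 of KO tumours. The KO groups hold the lines labelled KO1 and KO2 of genotype IRE1A KO, each with 2 cell and 3 tumour libraries. The line KO3 was left out by the rule that defines the comparison. Of 45706 genes in the table, 14949 were tested, and 9346 of these stood at 5 CPM (counts scaled to library size) or more in both WT cell libraries and are called expressed in WT cells below.

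Myc-CaP is a prostate carcinoma line from an FVB mouse with a prostate-directed MYC transgene, so all groups share that transgene. The KO lines were made with CRISPR-Cas9 and 1 guide RNA against Ern1, the gene of IRE1α, and the tumours grew in FVB mice. The labels give WT as 1 line, and do not say whether KO1 and KO2 are clones or pools, whether the cell libraries came from separate cultures, or the sex and age of the mice. The p-values therefore measure the spread between these libraries, which in cells may be technical, and line and genotype cannot be told apart for WT.

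IRE1α sits in the membrane of the endoplasmic reticulum (ER) and senses unfolded proteins. Its RNase splices the mRNA of Xbp1, and the resulting factor XBP1s raises genes for protein folding, glycosylation, secretion and ER-associated degradation. The other branches of this unfolded protein response run through ATF6, which acts on ER chaperone promoters, and through PERK, which together with other kinases raises ATF4, the activator of amino acid synthesis and transport genes.

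The guide is shown because the labels give it for the KO lines. It matched exon 2 of Ern1 within the coding sequence, on the minus strand of chromosome 11 from 106458942 to 106458961 in GRCm38, and AGG followed it in the transcript.

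Guide against Ern1: gcttgcatgctgttagcaag

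Ern1 mRNA stood at 117 and 133 CPM in WT cells and from 171 to 196 CPM in the 4 KO cell libraries. In WT tumours it ran from 64.6 to 83.9 CPM, and in KO tumours it was 73.4 at the lowest, 82.1 at the median and 92 at the highest. The groups did not overlap in cells and overlapped in tumours. The difference between the settings was -0.42 ± 0.15 on the log2 scale (SE) and did not pass (adjusted p = 0.147 by edgeR). Counts summed over a gene do not show small edits, and the edit was not checked here.

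The cell libraries held 18105510 to 24118553 counts and the tumour libraries 15994265 to 27497767. The prostate factor Hoxb13 was present in each of the 16 libraries, with 11.1 to 34.9 CPM, whereas the epithelial cadherin Cdh1 did not exceed 0.243 CPM in cells and 1.25 CPM in tumours. Genes under 0.5 CPM in all 6 cell libraries took 0.0339% to 0.0381% of the counts in cells, 0.774% to 3% in WT tumours and 1.26% to 2.55% in KO tumours. WT tumour 1 stood apart, with summed markers of neutrophils at 274 CPM against 3.71 to 8.31 CPM in the other WT tumours, and of skeletal muscle at 5040 CPM against 9.46 to 80.7 CPM. In WT tumour 4 the gene Yam1 took 24% of the counts. Without these 2 libraries 601 genes passed in place of the 543 given next.

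A positive difference means that the ratio of KO to WT was higher in tumours than in cells, and a negative one that it was lower. Of 14949 genes tested, 543 passed an adjusted p of 0.05 with edgeR's quasi-likelihood test (3.63%), 396 with a higher ratio in tumours (2.65%) and 147 with a lower one (0.983%). Among genes expressed in WT cells the higher calls numbered 320 (3.42%) and the lower calls 108 (1.16%). In the same fit 617 genes rose (4.13%) and 1139 fell (7.62%) in KO cells, and 706 rose (4.72%) and 971 fell (6.5%) in KO tumours. The median difference over all genes tested was -0.006 on the log2 scale.

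The count rests on the WT cells, of which there were 2 libraries. Without WT cell library 1 it was 205, and without WT cell library 2 it was 183. When the libraries of each line were summed, edgeR called 0 genes, with 1284 under an unadjusted p of 0.05 (edgeR was the only tool applied there). With KO3 added to the KO groups 146 genes passed, of which 137 were among the 543.

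Most of the genes called higher had fallen in KO cells. The difference subtracts the effect in cells. A fall there is thus in part built into a higher call, and a rise into a lower one. Among all 9346 expressed genes, 989 fell in cells and 478 rose. Of the 320 called higher and expressed in WT cells, 250 fell in cells. Of these 250, 181 were not called in tumours, 39 fell in tumours too and 30 rose in tumours. The 181 genes had a median log2 fold change of -0.80 in cells and 0.08 in tumours. The 39 that fell in both settings had medians of -1.58 and -0.67. Another 59 rose in tumours without a call in cells, and 11 were called in neither.

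The genes called lower were the counterpart, and here the subtraction favours a rise in cells. Of 108, 78 had risen in KO cells, of which 61 were not called in tumours, 15 fell in tumours and 2 rose there as well. A further 23 fell in tumours without a call in cells, and 7 were called in neither. The 61 genes had median log2 fold changes of 0.81 in cells and -0.10 in tumours.

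Over all 989 expressed genes that fell in KO cells, the median log2 fold change was -0.69 in cells and -0.27 in tumours, and over the 478 that rose it was 0.66 and 0.19. Choosing genes by the call in cells favours large values there. Chosen by the call in tumours, the 816 genes that fell had medians of -0.46 in cells and -0.51 in tumours, and the 525 that rose had medians of 0.16 and 0.45. The effect was smaller in size in tumours for 926 of the 989 genes chosen in cells that fell, and for 384 of the 816 chosen in tumours that fell.

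**Figure D1:**
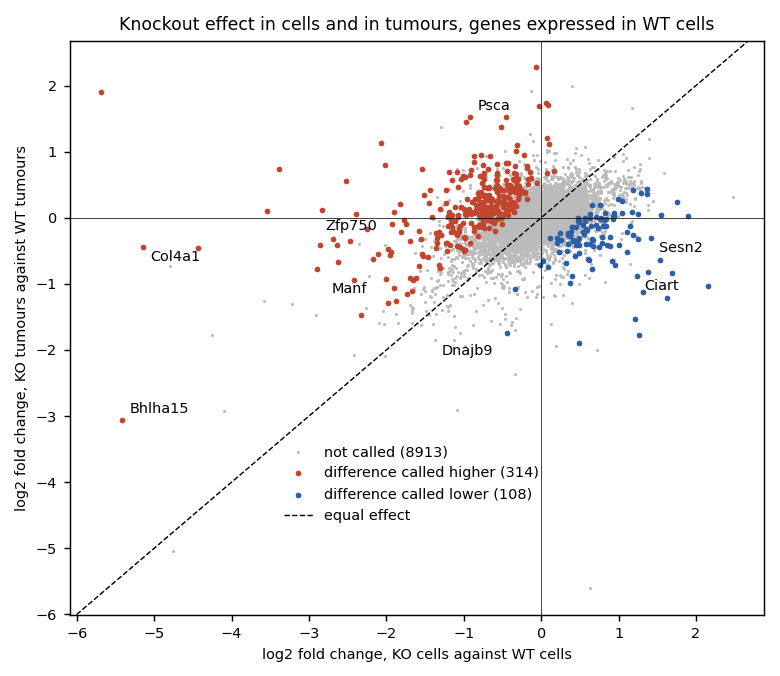
Each point is a gene expressed in WT cells and not near silent in KO cells, by its log2 fold change of KO against WT in cells (x axis) and in tumours (y axis). Of these, 314 were called higher (red) and 108 lower (blue), and the dashed line marks equal effects. Col4a1 lies far to the left near 0 on the y axis, Dnajb9 near the line, and Sesn2 and Ciart on the right below 0.

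Most genes of protein folding fell in both settings, and 12 of 36 fell by less in tumours or had no call there. All 36 listed ER chaperones and folding enzymes were tested, 31 fell in cells and 28 in tumours, and none rose in either. Their median log2 fold change was -1.16 in cells and -0.62 in tumours, and their median difference 0.39, against -0.006 for all genes. Over all expressed genes 3.42% were called higher and 1.16% lower, the shares to set beside this and the later lists. Of the 36, 12 were called higher in the difference and none lower. Of those 12, 8 fell in both settings, and 4 (Calr, Hsp90b1, Pdia3 and Dnajc10) fell in cells without a call in tumours. The part of host transcripts in the smaller effects in tumours was not tested. With KO3 added, 4 of the 36 passed in place of 12, and without WT cell library 1 or 2 the number was 7 or 6.

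Calr encodes calreticulin, the soluble lectin chaperone of the ER, and lies on chromosome 8 from 84841850 to 84846934 in GRCm38. It stood at 1430 and 1420 CPM in WT cells and at 565, 630, 722 and 635 CPM in KO cells. In WT tumours it was 2550, 2680, 2160 and 2440 CPM, and in KO tumours 2020 at the lowest, 2200 at the median and 2370 at the highest. All 4 KO cell libraries were below both WT cell libraries, by more than the spread between replicates, whereas the tumour groups overlapped. The log2 fold change was -1.16 in cells and -0.15 in tumours, a difference of 1.01 ± 0.15 (SE, adjusted p = 0.00107 by edgeR).

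Manf, a secreted factor kept in the ER, had 254 and 243 CPM in WT cells and 50.5 to 74.5 CPM in KO cells. It had 452, 525, 466 and 492 CPM in WT tumours and 223 to 279 CPM in KO tumours. Here the groups were apart in both settings, and the fall was larger in cells, at -2.01 against -0.92 on the log2 scale. The difference was 1.09 ± 0.16 (SE, adjusted p = 0.00113 by edgeR). The disulfide isomerase Pdia4 fell by 1.35 in cells and by 0.39 in tumours on the log2 scale, a difference of 0.96 ± 0.14 (SE, adjusted p = 0.00117). Hspa5, the main ER chaperone BiP, had 1400 and 1350 CPM in WT cells, 469 to 574 CPM in KO cells, 1510 to 2380 CPM in WT tumours and 1140 to 1760 CPM in KO tumours. Its difference of 0.90 ± 0.22 (SE, adjusted p = 0.0341) was lost in 16 of 32 alternative settings.

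For some other members the fall in tumours was not smaller than that in cells. Dnajb9, a co-chaperone of BiP and a well-known XBP1s target, had 28.7 and 29.9 CPM in WT cells, 9.48 to 14.3 CPM in KO cells, 40.7 to 54.7 CPM in WT tumours and 11.1 to 16.4 CPM in KO tumours. Its log2 fold change was -1.38 in cells and -1.85 in tumours, and the difference of -0.48 ± 0.23 (SE) did not pass (adjusted p = 0.351 by edgeR). P4hb, the main protein disulfide isomerase, was chosen after its values were seen. Its log2 fold change was -1.55 in cells and -1.62 in tumours, a difference of -0.07 ± 0.13 (SE, adjusted p = 0.942). For 18 members a fall was called in both settings and no difference between them, although a missed call does not show that the effects were equal. Over the 24 members with no difference called, the median log2 fold change was -1.11 in cells and -0.77 in tumours. Of all 36 members, 28 had a positive difference and 8 a negative one, as Dnajb9 and P4hb did.

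Promoters were examined for the ER stress response element (ERSE) in the window from 250 bases before to 50 after the start site. ERSE was taken as CCAAT and CCACG with any 9 bases between, on either strand. Of 10515 tested genes with a promoter in the RefSeq table (GRCm38.p6), 0.19% held it. Of the 30 ER folding genes with a promoter, 7 held it (23.3%), and of the 11 called higher, 4 did (36.4%). The same 4 (Calr, Pdia6, Hsp90b1 and Hspa5) were the only holders among 192 expressed genes that fell in cells and were called higher (2.08%). This share is thus not separate from the 36.4%. Of 591 expressed genes that fell in cells with no difference called, 4 held it (0.677%). The UPRE core TGACGTGG was in 3.12% and 3.21% of the same groups and in 1.01% of all, and CCACG alone, which is part of ERSE, in 54.7%, 60.7% and 50.6%. The matches before the start site in the genes called higher are shown because they are the sites in this list whose genes fell less in tumours, with CCAAT and CCACG, or their reverse complements, in capitals.

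Calr: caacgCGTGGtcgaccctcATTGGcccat
Pdia6: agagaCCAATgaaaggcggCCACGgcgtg
Hsp90b1, farther site: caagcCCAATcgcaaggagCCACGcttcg
Hsp90b1, nearer site: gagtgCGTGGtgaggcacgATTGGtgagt
Hspa5: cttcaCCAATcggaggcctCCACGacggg

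These lie at chr8:84847070-84847098 (minus strand) for Calr, chr12:17266486-17266514 (plus) for Pdia6, chr10:86705633-86705661 and chr10:86705528-86705556 (minus) for Hsp90b1, and chr2:34772020-34772048 (plus) for Hspa5. A match is a description of the letters and was not tested for binding. It does not tell which factor of the unfolded protein response acts on a gene.

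Most genes that move proteins into the ER and on to the Golgi fell in both settings. All 30 listed genes of the translocon, signal peptidase and glycosylation fell in tumours and 27 fell in cells, with medians of -0.80 and -1.04 on the log2 scale, and the median difference was 0.24. Of these, 4 were called higher: Ssr1 and Ssr2, subunits of the translocon-associated complex, Rpn1, a subunit of the oligosaccharyltransferase, and Spcs2 of the signal peptidase. Ssr1 fell by 1.58 in cells and by 0.73 in tumours, and Ssr2 by 1.73 and 1.15. Krtcap2, another oligosaccharyltransferase subunit, was called lower. Of 37 genes of vesicle traffic between ER and Golgi, 33 fell in cells and 29 in tumours, and Tmed10, Copb2 and Sar1a were called higher. Tmed10 lost the call in 3 of 32 alternative settings, Copb2 in 14 and Sar1a in 18. Of 22 genes of ER-associated degradation, Edem2 and Vimp were called higher, and the median difference was -0.04. Edem2 lost the call in 6 of the 32 settings and Vimp in 13. Over all expressed genes 3.42% were called higher.

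Of 17 listed sensors and transcription factors of the unfolded protein response, 7 fell and 3 rose in cells, and 10 fell and none rose in tumours, where the median log2 fold change was -0.47. In the difference Bhlha15 and Mbtps1 were called higher and Ddit3, Atf4 and Cebpb lower. Bhlha15, a factor of secretory cells also called MIST1, had 17.5 and 14.1 CPM in WT cells and 0.292 to 0.521 CPM in KO cells. In tumours it had 11.3 to 24.3 CPM in WT and 1.49 to 3.2 CPM in KO, so that the groups were apart in both settings. The difference was 2.36 ± 0.44 on the log2 scale (SE, adjusted p = 0.00572 by edgeR). Total Xbp1 mRNA fell by 0.87 in cells and by 0.47 in tumours on the log2 scale, and the difference of 0.40 ± 0.22 (SE) did not pass (adjusted p = 0.443).

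Many targets of ATF4 rose in KO cells. Of 27 tested, 15 rose and none fell in KO cells, whereas in KO tumours 6 fell and 1 (Psph) rose. In the difference 14 were called lower and none higher, and the median was -0.78, from 0.64 in cells and -0.13 in tumours. The median was -0.80 with KO1 alone and -0.77 with KO2 alone, both set against the same WT libraries. Of the 14, 8 rose in cells without a call in tumours, 3 rose in cells and fell in tumours, and 3 fell in tumours without a call in cells. With KO3 added the median was -0.51 and none of the 27 passed, and without WT cell library 1 or 2 the number was 8 or 7.

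Asns, the asparagine synthetase, lies on chromosome 6 from 7675169 to 7693254. It had 235 and 223 CPM in WT cells and 420, 410, 431 and 430 CPM in KO cells. It had 100, 135, 104 and 86.7 CPM in WT tumours and 75.8 at the lowest, 86.6 at the median and 96.7 at the highest in KO tumours. The KO cells were all above the WT cells, and the tumour groups overlapped. The log2 fold change was 0.89 in cells and -0.29 in tumours, a difference of -1.17 ± 0.18 (SE, adjusted p = 0.00124 by edgeR).

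Sesn2, a stress-induced inhibitor of mTORC1 signalling, lies on chromosome 4 from 132492032 to 132510501. It had 30.6 and 31.1 CPM in WT cells and 74.1 to 95.2 CPM in KO cells. It had 9.97 to 18.3 CPM in WT tumours and 8.09 to 11.2 CPM in KO tumours, where the groups overlapped. The difference was -1.72 ± 0.25 on the log2 scale (SE, adjusted p = 0.00107 by edgeR). Mthfd2, a mitochondrial enzyme of folate metabolism, had 98.2 and 85.5 CPM in WT cells and 123 to 136 CPM in KO cells, against 148 to 205 CPM in WT tumours and 110 to 128 CPM in KO tumours. Here KO was above WT in cells and below WT in tumours with no overlap in either, and the difference was -1.01 ± 0.14 (SE, adjusted p = 0.000971).

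**Figure D2:**
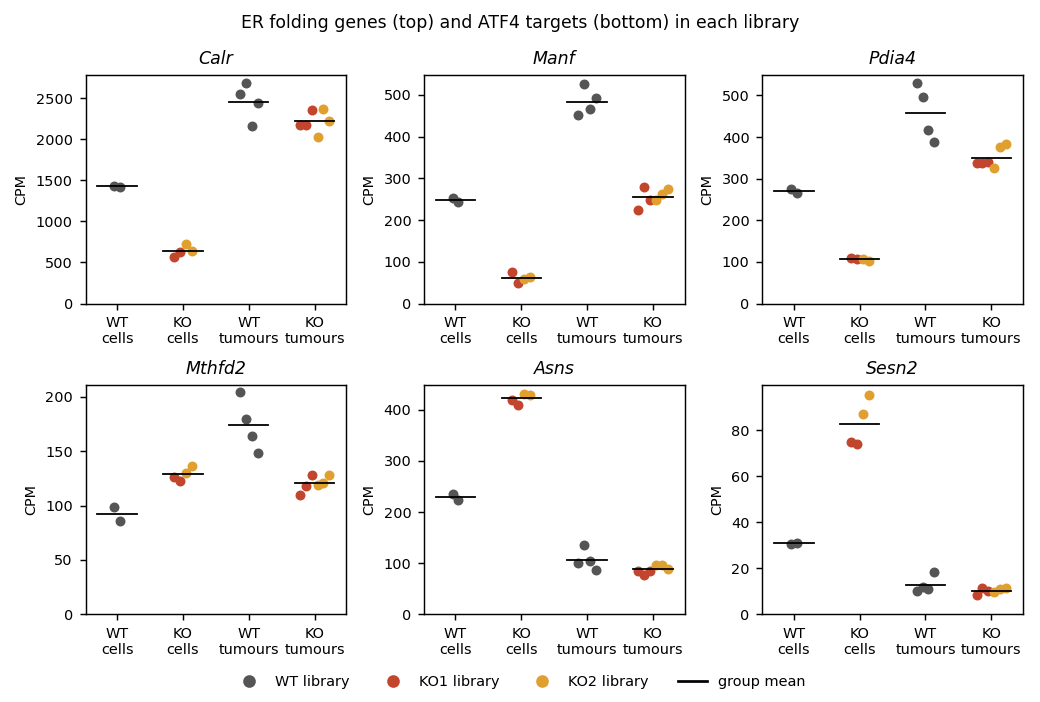
CPM of 3 ER folding genes (top) and 3 ATF4 targets (bottom) in each of the 16 libraries, with 1 dot a library and a bar at the group mean. In cells the KO dots lie below WT in the top row and above WT in the bottom row, whereas in tumours the groups overlap for Calr, Asns and Sesn2 and KO is below WT for Manf, Pdia4 and Mthfd2.

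Among the 14 called ATF4 targets the difference ran from -3.19 on the log2 scale for Trib3, a pseudokinase, to -0.64 for Nars, an aminoacyl-tRNA synthetase. Of the 13 that were not called, Slc7a11, a cystine transporter, had -1.79 and Gdf15, a secreted stress factor, 0.92. Nupr1, a stress-induced nuclear protein with a difference of -3.04, was chosen after its values were seen, as were Trib3, Nars, Slc7a11 and Gdf15. It had 29.3 and 27.9 CPM in WT cells, 56.2 to 75.7 CPM in KO cells, 35 to 185 CPM in WT tumours and 22.8 to 40.2 CPM in KO tumours. WT tumours 1 and 2 were the high ones, with 185 and 121 CPM.

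Ddit3, the stress factor CHOP, stood at 6.27 and 5.08 CPM in WT cells and 19.8 to 22.9 CPM in KO cells. It stood at 54.8, 18.6, 14.5 and 12.5 CPM in WT tumours and 5.23 at the lowest, 7.74 at the median and 17.1 at the highest in KO tumours. The high WT value was that of WT tumour 1. The difference was -3.36 ± 0.70 on the log2 scale (SE, adjusted p = 0.0118 by edgeR), and -2.64 without that library (adjusted p = 0.00376). The call was lost without WT cell library 1 (adjusted p = 0.1) or 2 (adjusted p = 0.128). Exons of Ddit3 overlap those of Mars on the opposite strand, and it is not stated whether strand was used in counting. Atf4 itself had 287 and 279 CPM in WT cells and 428 to 543 CPM in KO cells, against 111 to 225 CPM in WT tumours and 90.6 to 152 CPM in KO tumours, a difference of -1.20 ± 0.29 (adjusted p = 0.0282).

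The element TTGCATCA, a form of the site bound by ATF4 with C/EBP factors, was added after the results were known. It was in 10% of the 60 promoters of expressed genes that rose in cells and were called lower, in 1.3% of the 307 that rose in cells with no difference called, and in 0.808% of all. Of the 22 ATF4 targets with a promoter 5 held it (22.7%), and of the 11 called lower, 3 did (27.3%). Of the latter, Chac1 and Aars rose in cells and are also among the 60. The sites of Nupr1 and Chac1 are shown because the former gene fell in tumours and the latter rose in cells, with the element in capitals.

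Nupr1: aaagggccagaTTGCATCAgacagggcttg
Chac1: cttccctgccgTTGCATCActcctgccagg

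These lie at chr7:126625562-126625591 (minus strand) and chr2:119351038-119351067 (plus). In the GENCODE M21 annotation the printed sites of Nupr1 and Hspa5 fall within an exon of the gene, since start sites differ between annotations.

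Outside the ATF4 list, the lower calls with the smallest p among expressed genes included Cyb5r1, a cytochrome b5 reductase, and Ciart, a repressor of the circadian clock. Cyb5r1 had 41.3 and 42.1 CPM in WT cells and 88.6 to 101 CPM in KO cells, and 22.9 to 34.8 CPM in WT tumours against 20.8 to 28.3 CPM in KO tumours. Ciart had 11.5 and 12 CPM in WT cells, 26 to 29.5 CPM in KO cells, 5.74 to 8.48 CPM in WT tumours and 2.5 to 5.48 CPM in KO tumours. Its KO libraries were above WT in cells and below WT in tumours, with a difference of -2.12 ± 0.29 on the log2 scale (SE, adjusted p = 0.000707 by edgeR). Cth, an enzyme of cysteine synthesis, had a difference of -1.26. Hax1, a mitochondrial protein of cell survival, had 97.5 to 109 CPM in KO cells and 98.3 and 98.1 CPM in WT cells, was not called there, and fell in tumours, from 76.3 to 96.2 CPM in WT to 46.3 to 56.8 CPM in KO.

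Of the 15 expressed genes with the smallest p among lower calls, Arhgef2, Ift172, Eif1ad, Palld, Cnppd1 and Agap1 had differences from -1.67 for Palld to -0.86 for Agap1. Cars and Gpt2, which are on the ATF4 list, had -0.93 and -0.95.

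Zfp750, a transcription factor of epithelial differentiation, had the smallest p among expressed genes and lies on chromosome 11 from 121510978 to 121519333. It had 22.2 and 20.9 CPM in WT cells and 5.97, 4.8, 6.32 and 6.04 CPM in KO cells. It had 19.4, 20.1, 18.1 and 20.5 CPM in WT tumours and 19.1 at the lowest, 20.6 at the median and 22.9 at the highest in KO tumours. The level in KO cells was below each of the other 3 groups, which overlapped among themselves except that both WT cell libraries were above all WT tumours. The difference was 1.99 ± 0.15 on the log2 scale (SE, adjusted p = 3.64e-06 by edgeR), with 2.05 in KO1 and 1.93 in KO2.

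Surface proteins of prostate and other epithelia were among the genes that fell in cells and rose in tumours. Psca, the prostate stem cell antigen, lies on chromosome 15 from 74714839 to 74717069, with 311 and 300 CPM in WT cells and 124, 125, 207 and 193 CPM in KO cells. It had 295, 197, 242 and 220 CPM in WT tumours and 516 at the lowest, 665 at the median and 915 at the highest in KO tumours. All KO libraries were below WT in cells and above WT in tumours. The difference was 2.44 ± 0.30 on the log2 scale (SE, adjusted p = 0.000307 by edgeR).

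Anpep, the aminopeptidase CD13, had 160 and 167 CPM in WT cells and 86.9 to 91.2 CPM in KO cells, and 53.2 to 65.4 CPM in WT tumours against 96.9 to 140 CPM in KO tumours. The groups did not overlap in either setting, and the difference was 1.80 ± 0.15 on the log2 scale (SE, adjusted p = 7.58e-06 by edgeR). Tnfsf10, the death ligand TRAIL, followed the same order, with a difference of 3.20 ± 0.37 (adjusted p = 0.000271 by edgeR). Prom2, a membrane protein of epithelial protrusions, instead fell in cells from 73.6 and 83.2 CPM to between 9.32 and 15.2 CPM, and was 490 to 805 CPM in WT and 479 to 565 CPM in KO tumours, where it was not called. Of 15 listed prostate genes tested, 3 were called higher, among them Psca and Steap4, and Steap1 was called lower.

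**Figure D3:**
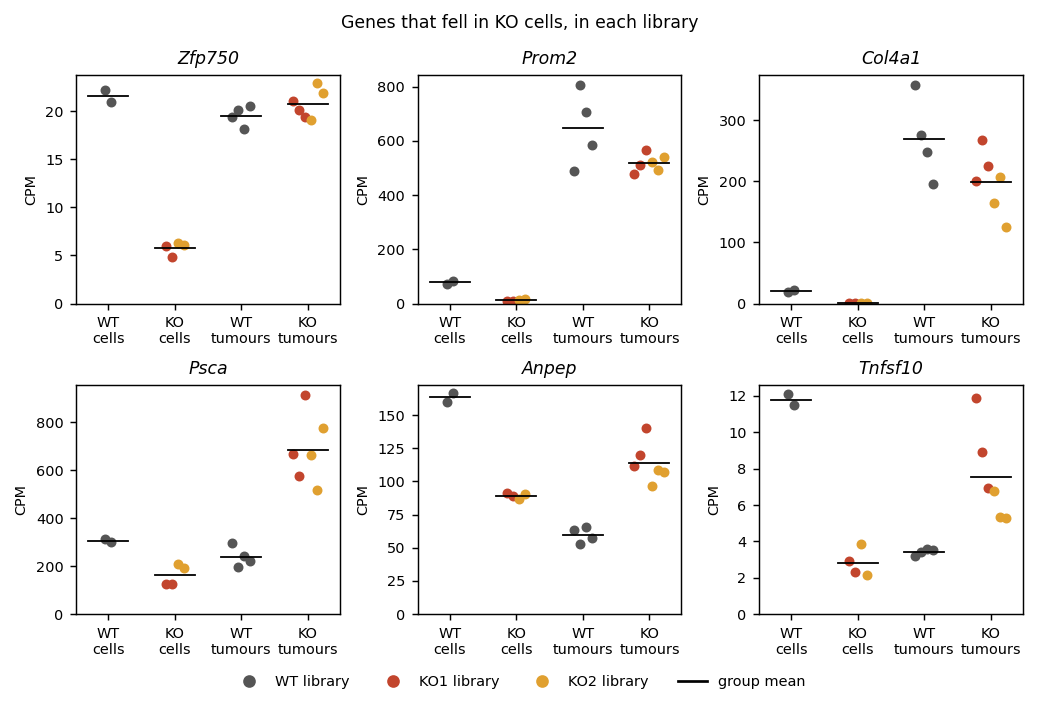
CPM of 6 genes that fell in KO cells, in each library, with 1 dot a library and a bar at the group mean. Psca, Anpep and Tnfsf10 have KO below WT in cells and above WT in tumours, whereas Zfp750, Prom2 and Col4a1 have KO below WT in cells and overlapping groups in tumours.

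Enzymes of retinoid, steroid and xenobiotic metabolism formed the list with the largest median difference of the 23. Of 24 tested, 10 were called higher and none lower, with medians of -0.89 in cells and -0.18 in tumours and a median difference of 0.81. Of the 10, 6 fell in cells without a call in tumours, Adh1 and Cyp2b10 fell in both settings, Anpep fell in cells and rose in tumours, and Gsta4 only had a call in tumours, where it rose. Cyp2b10, a drug-metabolising cytochrome P450, had 22 and 22.5 CPM in WT cells, 2.51 to 3.61 CPM in KO cells, 207 to 334 CPM in WT tumours and 122 to 200 CPM in KO tumours. The groups did not overlap in either setting, and the difference was 2.12 ± 0.28 (SE, adjusted p = 0.000616 by edgeR). Gsta4, a glutathione transferase that acts on lipid peroxidation products, had 19.5 and 18.8 CPM in WT cells, 10.3 to 14.6 CPM in KO cells, 13.4 to 20.8 CPM in WT tumours and 36.4 to 50.2 CPM in KO tumours. Stra6, the retinol uptake receptor, was named after its values were seen: it had 97.7 and 97.6 CPM in WT cells and 0.243 to 3.86 CPM in KO cells, and KO1 tumours had 55.4 to 61.9 CPM against 12.6 to 15.2 CPM in KO2 tumours and 5.49 to 14 CPM in WT tumours.

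Collagen IV genes and part of the other basement membrane genes fell in KO cells without a call in tumours. Of 24 listed genes, 7 were called higher (Col4a1, Col4a2, Col4a5, Nid2, Lamb2, Agrn and Itgb1), all of which fell in cells without a call in tumours, and 1 was called lower. Col4a1, the main collagen IV chain, had 18.8 and 22.2 CPM in WT cells and 0.401 to 0.781 CPM in KO cells. It had 357, 276, 248 and 195 CPM in WT tumours and 125 at the lowest, 204 at the median and 267 at the highest in KO tumours. The difference was 4.71 ± 0.38 on the log2 scale (SE, adjusted p = 7.58e-06 by edgeR), and Col4a2, its neighbour with overlapping exons on the opposite strand, had 3.98 ± 0.34. Both genes stood at higher levels in all 10 tumours than in any cell library. Summed fibroblast and pericyte markers were 13.2 to 23.1 CPM in cells, 384 to 2460 CPM in WT tumours and 708 to 3240 CPM in KO tumours, and summed endothelial markers were 0.21 to 0.445 CPM in cells, 68.9 to 183 CPM in WT tumours and 79.9 to 151 CPM in KO tumours. The part of these host cells in the collagen levels was not tested, and in bulk tissue fewer cells of a type and less RNA per cell cannot be told apart. Lamb2, a laminin chain, in contrast stood at 414 and 436 CPM in WT cells, 200 to 231 CPM in KO cells, 178 to 208 CPM in WT tumours and 172 to 246 CPM in KO tumours.

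Part of the lipid synthesis genes fell in cells. Of 22 cholesterol synthesis genes, 13 fell in cells and 3 in tumours, with a median difference of 0.45, and 3 were called higher, among them Dhcr7 and Idi1. Of 20 genes of fatty acid and lipid synthesis, 5 were called higher (Fasn, Acaca, Fads2, Scd2 and Elovl6). Fasn, the fatty acid synthase, fell by 1.16 in cells and had a log2 fold change of -0.07 in tumours, a difference of 1.09 ± 0.20 (SE, adjusted p = 0.00507).

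**Figure D4:**
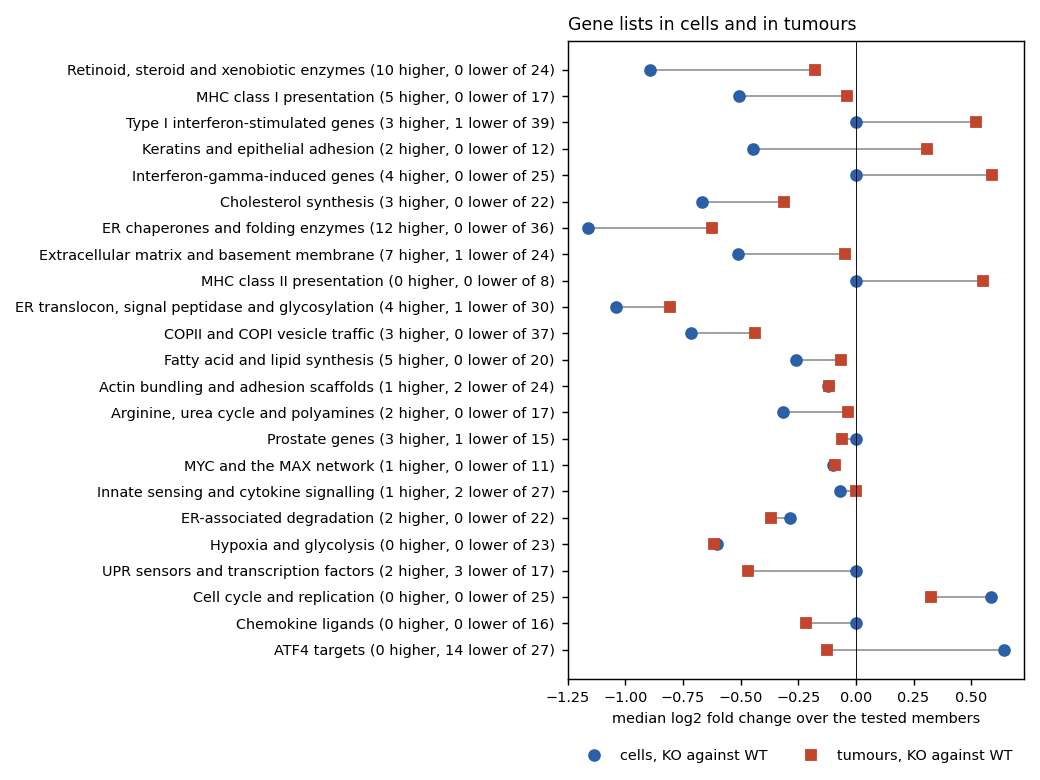
Median log2 fold change of KO against WT over the tested members of each of 23 gene lists, in cells (circles) and in tumours (squares), ordered by the median difference, with the number called higher and lower in the difference. The retinoid list spans -0.89 to -0.18, the ER chaperones -1.16 to -0.62 and the ATF4 targets 0.64 to -0.13. A median of 0 in cells can come from members with no counts there.

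Of 17 genes of MHC class I presentation, 5 were called higher. Calr, Pdia3 and Tapbp form the peptide loading complex with others, Erap1 trims peptides, and B2m is the light chain. Calr and Pdia3 are also counted above among the ER folding genes called higher, so the 2 lists are not separate. Tapbp lost the call in 9 of 32 alternative settings. B2m had 917 and 903 CPM in WT cells and 379 to 459 CPM in KO cells, whereas in tumours it had 2720 to 3760 CPM in WT and 2410 to 3640 CPM in KO, with a difference of 0.87 ± 0.21 (SE, adjusted p = 0.0285 by edgeR). The heavy chains H2-K1 and H2-D1 had differences of 0.62 and 0.42 that did not pass. Summed leukocyte markers were at most 1.75 CPM in cells, 109 to 318 CPM in WT tumours and 159 to 316 CPM in KO tumours. The part of host cells in the tumour levels of these genes was not tested.

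Of 39 type I interferon-stimulated genes, 15 of them expressed in WT cells, Ifi27, Parp9 and Stat2 were called higher and Rsad2 lower. In tumours 9 rose and none fell, and in cells 3 rose and 1 fell. The median difference was 0.56 and 0.65 over the expressed members. Of 25 interferon-gamma-induced genes, Tgtp1, Gbp7, Irgm1 and Irgm2 were called higher. Irgm2 lost the call in 10 of 32 alternative settings, Gbp7 in 5 and Tgtp1 in 3. Over all genes tested 2.65% were called higher and 0.983% lower. Tgtp1, an interferon-induced GTPase, had 179 and 178 CPM in WT cells, 58 to 66.2 CPM in KO cells, 20.1 to 40.3 CPM in WT tumours and 21.4 to 70.1 CPM in KO tumours. Summed T and NK cell markers were 2.46 to 5.07 CPM in WT tumours and 6.36 to 15.2 CPM in KO tumours, with all KO tumours above all WT tumours, and at most 0.734 CPM in cells. Their part in the interferon-stimulated genes was not tested. With the leukocyte markers as a covariate 796 genes passed in the difference, 540 of which were among the 543. Of 27 genes of innate sensing and cytokine signalling, 24 were not called, and the median difference was 0.06. In this list the receptor Tlr3 was called higher, with a difference of 1.60 ± 0.22 (SE, adjusted p = 0.00091 by edgeR), and the adaptor Myd88 and the cytokine Il16 lower.

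None of the listed genes of hypoxia and glycolysis (23), cell cycle and replication (25), MHC class II presentation (8) or chemokine ligands (16) was called in the difference. Vegfa, the endothelial growth factor, was closest in the hypoxia list, with -1.49 ± 0.44 on the log2 scale (SE, adjusted p = 0.0803 by edgeR). Of the cell cycle genes 6 rose in cells and 4 in tumours, and the median difference was -0.32. Mouse Myc had a difference of -0.45 ± 0.27 (adjusted p = 0.494). Of 12 keratin and epithelial adhesion genes tested, Cldn4 and Ceacam1 were called higher. Of 24 actin scaffold genes, Tns1 was called higher and Palld and Etl4 lower. Of 17 arginine and polyamine genes, Oat and Ass1 were called higher. Over all genes tested 2.65% were called higher and 0.983% lower. Of 11 genes of the MYC and MAX network, Mga was called, as described next.

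Of the 9346 expressed genes, 11 were near silent in KO cells, with under 0.5 CPM in all 4 libraries, and 6 of the 11 were called higher. Over all expressed genes 3.42% were called higher. The class was chosen by its fall in cells, so the direction of the difference is largely built in and the 6 calls are no separate result. The Rpl35a pseudogenes of the class had 0 CPM in WT tumours and were not called. Mga, a MAX partner that represses MYC targets, lies on chromosome 2 from 119897228 to 119969581. It had 16.2 and 16.7 CPM in WT cells and 0 counts in each KO cell library, so it was at least 411-fold lower on CPM without TMM scaling, with 3 counts over the 4 libraries as the floor. It had 19.7, 13.3, 19.4 and 19.8 CPM in WT tumours and 12.2, 6.87, 5.7, 4.56, 4.22 and 2.82 CPM in KO tumours, where the mean of KO was at 33.6% of that of WT. All KO tumours were below all WT tumours and above all KO cells.

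Hiatl1 and Igsf3, an immunoglobulin superfamily protein, also had 0 counts in KO cells, at least 162-fold and 215-fold lower. In tumours the mean of KO was at 41% of WT for Hiatl1 and at 115% for Igsf3, with 5.33 to 6.76 CPM in KO1 tumours, 1.64 to 2.12 CPM in KO2 tumours and 2.89 to 4.03 CPM in WT tumours. Bcat1, a branched-chain aminotransferase, was at least 180-fold lower in KO cells. It had 9.97 CPM in WT tumour 1, 0.94 to 1.4 CPM in the other WT tumours, 2.77 to 3.03 CPM in KO1 tumours and 0.872 to 1.03 CPM in KO2 tumours, so that KO was at 56% of WT with that library and at 155% without it. Mapk13, the kinase p38δ, had 8 counts in all in KO cells against 5.8 and 6.66 CPM in WT cells, and 8.56 to 15.3 CPM in KO tumours against 30.1 to 33.2 CPM in WT tumours. Summed leukocyte markers in the KO tumours, in the order given for Mga, were 316, 303, 239, 226, 159 and 197 CPM. In KO cells they were at most 1.02 CPM. Their part in these genes was not tested, and fitted fold changes against 0 counts are not given because they depend on the prior count.

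**Figure D5:**
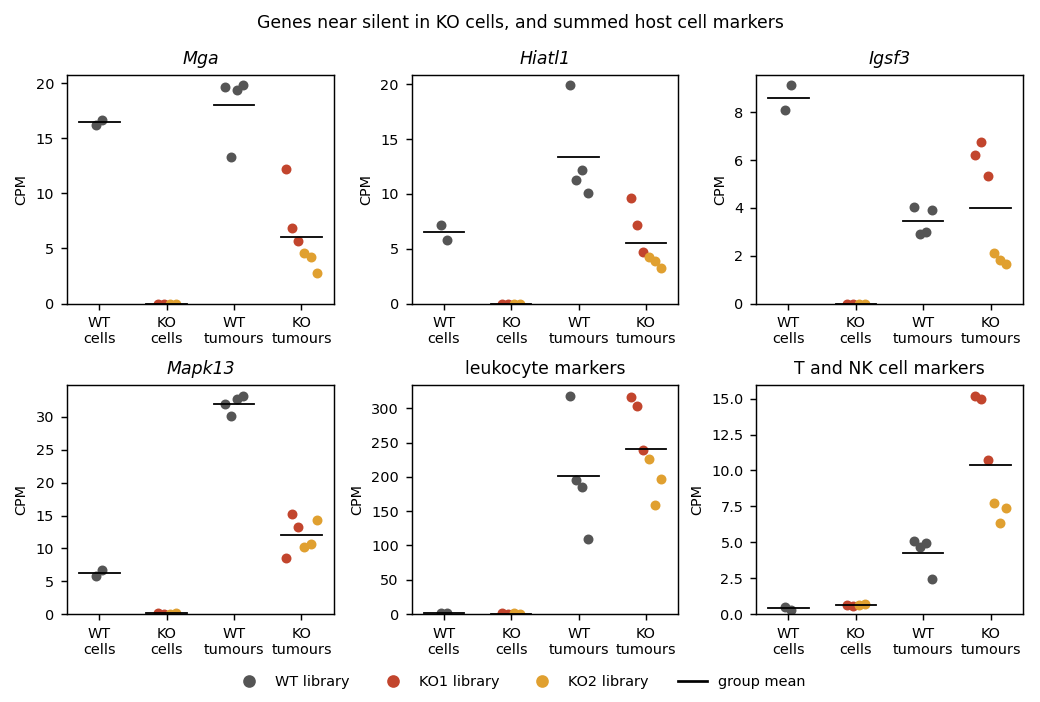
CPM of 4 genes near silent in KO cells and summed CPM of leukocyte and of T and NK cell markers, with 1 dot a library and a bar at the group mean. KO cells lie at or near 0 for the 4 genes, KO tumours do not, and the KO1 tumours lie above the KO2 tumours for Mga, Hiatl1, Igsf3 and both marker sums.

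Genes outside the expressed class are given apart. Ass1, which makes argininosuccinate, had the smallest p of all genes: 4.35 and 3.62 CPM in WT cells, at most 0.0487 CPM in KO cells, 89.6 to 128 CPM in WT tumours and 108 to 179 CPM in KO tumours (adjusted p = 1.15e-06 by edgeR). Of 2680 genes near 0 in cells, 9 were called higher and none lower. Calls were thus rarer here than over all genes tested, of which 2.65% were called higher and 0.983% lower. Lcn10, a lipocalin, was the only one of the 5 with the smallest p above 10 CPM in tumours, with 30.2 to 42.8 CPM in WT tumours and 111 to 138 CPM in KO tumours, and at most 0.234 CPM in cells. The others, Ccdc33, B3glct, Trex2 and Klk1b11, were at most 0.524 CPM in cells. Klk1b11, a kallikrein, had 0.94 to 2.11 CPM in WT tumours and 4.26 to 8.03 CPM in KO tumours. The leukocyte gene Ptprc had 0 counts in each cell library and 10.1 to 45.6 CPM in tumours, so the difference rests on the tumours alone, where it was not called (log2 fold change 0.44, adjusted p = 0.469).

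The 2 KO lines were compared in the same contrast, in which WT cancels. Of 14949 genes, 11 differed between KO1 and KO2 (0.0736%), 7 higher in KO1 and 4 lower. Tmc4, a membrane channel-like protein, had 0.802 and 0.818 CPM in KO1 cells and 1.83 and 2.48 CPM in KO2 cells, against 39.7 to 44.1 CPM in KO1 tumours and 33.3 to 40.5 CPM in KO2 tumours. Car14, a carbonic anhydrase, had 8.97 and 7.51 CPM in KO1 cells, 5.64 and 5.65 CPM in KO2 cells, 14.3 to 18.5 CPM in KO1 tumours and 25.5 to 27.6 CPM in KO2 tumours. Leaving out 1 library at a time gave between 0 genes and 63 by edgeR, the last without WT tumour 1, and a count within 1.5 times of 11 was kept only without WT tumour 2 or 4.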

How the data were processed

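RNA-seq was measured in 16 libraries of Myc-CaP cells and tumours. The authors deposited gene-level estimated counts, as a plain table and as one scaled by transcript length, with 7.96% to 10.2% of a library's values not whole. Trim Galore 0.6.7, STAR, Salmon 1.5.2 and GRCm38 are named in the submitters' processing notes. The kit was stranded, per the labels' protocols, and the strand setting of the counting is not given in the sources used here.

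The plain table was rounded and fitted in 4 groups (WT and KO, in cells and in tumours) with edgeR 4.0.16 in R 4.3.3: filterByExpr, TMM scaling, the quasi-likelihood test, and Benjamini-Hochberg adjustment over all genes tested at 0.05. The SE is the log2 value over the square root of F. A fit of 6 groups set KO1 and KO2 apart. Levels are CPM with TMM scaling, and expression classes used CPM without it. A count of 0 was given a floor of 3 counts, which covers counting error only. All replicate pairs differed by more than sampling noise (lowest chi-square per degree of freedom 8.39). The scripts were tested on simulated data.

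The comparison, its gene lists and its rules were chosen with earlier results of these data known, so no list is independent evidence of its direction. Named genes were the 15 expressed genes with the smallest p in each direction, 5 near silent, 5 near 0 in cells per direction, 3 per pathway list, 5 for the line difference, and Ern1, Xbp1, Dnajb9, Hspa5, Ddit3, Myc and Ptprc. Some genes that these rules select are left out of the text. Of 45706 gene IDs, 45143 were found in GENCODE M21, and 10515 of 14928 tested symbols had a RefSeq promoter.

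Alternatives changed the scaling (RLE, or TMM from expressed genes), the filter, the table, the tool (DESeq2 1.42.0, limma 3.58.1 voom with a random line term), the model (a replicate block, 6 groups, separate fits, marker covariates) and the libraries (each library or line left out, sums per line, KO3 added, WT tumours 3 and 4 summed since their labels carry 1 shared number). Leaving out WT tumours 1 and 4 together was chosen after seeing the data. Figures were drawn with matplotlib 3.10.9.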

Additional observations from a re-analysis of the deposited data

Results flagged for a closer look

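The knockout effect differed between tumours and cells in 543 genes, as described. In 22 of 315 groups of libraries tested for the named genes, 1 library lay far from the others, and chance alone gives about 1 in 20. Of these, 8 were high values of WT tumour 1: Bcat1 (9.97 CPM, the others at most 1.4), Ddit3 (54.8 CPM), Ifi27 (185 CPM), Parp9 (34.9 CPM), H2-DMb1 (5.34 CPM), Steap4 (223 CPM, the others at most 91.2), and the chemokines Cxcl2 (35.2 CPM, the others at most 1.09) and Cxcl5 (33.5 CPM, the others at most 0.179). That library also had the highest summed neutrophil, skeletal muscle and adipocyte markers, and their part was not tested. Among the other WT tumours, Mga was low (13.3 CPM) and Ssr2 (429 CPM) and Cyp2b10 (334 CPM) were high in tumour 2, Tmed10 was low in tumour 3 (437 CPM) and Max low in tumour 4 (58.3 CPM). Among KO tumours, Vegfa (50.1 CPM) and Cyp2b10 (200 CPM) were high in KO2 tumour 2 and Gbp7 (29.7 CPM) in KO1 tumour 1. Among KO cells, Gsta4 was low in KO2 library 2 (10.3 CPM), Vegfa low in KO1 library 1 (56.5 CPM) and Bhlha15 high in KO1 library 2 (0.521 CPM), and Ccdc33 (0.0372 CPM), Ctss (0.0372 CPM) and Ass1 (0.0487 CPM) had counts in 1 library only.

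In 5 named genes the difference between settings was itself different between KO1 and KO2. The log2 value of KO1 minus KO2 was 1.61 for Tmc4, 2.99 for Mgat4a, 2.46 for Pard6g, -1.23 for Car14 and -3.97 for Tns3. Mgat4a, a glycosyltransferase, had 1 and 1.41 CPM in KO1 cells against 8.62 and 6.82 CPM in KO2 cells, with 4.28 to 7.33 CPM in all KO tumours. Tns3 had 2.81 and 2.08 CPM in KO1 cells, 0.105 and 0.0487 CPM in KO2 cells and 0 in both WT cell libraries, and the value rests on few counts.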

How the results depend on the processing

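No named gene changed sign while called. The count of genes called in the difference, 543 (428 among those expressed in WT cells), was 953 (761) with DESeq2, 146 (103) with KO3 included, 239 (192) without line KO2 and 0 (0) with libraries summed per line, and ran from 183 to 669 (147 to 531) leaving out each library. The count in cells, 1756, was 839 with KO3 included, 907 without line KO2, 384 with libraries summed per line and 4315 in a fit of cells alone, and from 563 to 2072 leaving out each library. The count in tumours, 1677, was 836 without line KO1, 52 with libraries summed per line and 769 in a fit of tumours alone, and from 1021 (without WT tumour 2) to 1697 leaving out each library. The 11 genes that differed between the lines were 97 with DESeq2, 2 in the length-scaled table, 6 with the replicate block and from 0 to 63 leaving out each library. Sums per line and left-out lines leave fewer samples, and the cause was not tested for any of these changes. With the replicate block the difference had 487 calls, cells 1750 and tumours 1484. Same-numbered libraries of different groups had correlations of -0.278 to 0.505, with 9 of 33 over 0.1. Libraries of different numbers had -0.505 to 0.339, with 20 of 72 over 0.1. These are correlations of deviations from the mean of each line, which mirror each other where a line has 2 libraries. The values therefore cannot decide whether the numbers mark a pairing. Of 83 named genes called, 83 lost the call with libraries summed per line, 44 with KO3 included, and 22 and 24 without WT cell library 1 and 2. Where 1 WT cell library was left, it was assumed to vary like the other groups.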
